A study of Mus musculus with 24 samples.

Results

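Glycolysis and hypoxia genes were described in mouse endometriotic lesions and uterus by 38 named members out of the 56691 genes in the deposited count table. A gene was taken as a member when its symbol in the table matched the list. The members were 14 widely expressed glycolytic enzymes, 3 muscle isoforms with the muscle glucose carrier, 2 neural isoforms, 4 carriers of glucose or lactate, 4 regulatory kinases, 8 hypoxia targets and the 2 alpha subunits of the hypoxia-inducible factor (HIF). The question was how far the muscle isoforms, the widely expressed enzymes and the hypoxia targets moved together in each lesion library.

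Total RNA was sequenced from 24 libraries in 6 groups of 4. Lesions from mice after endometriosis surgery (labelled Ectopic), the uterus left in place in such mice (Eutopic) and the uterus of sham-operated mice were each collected at 3 months and at 1 month after surgery. Surgery was done at 8 weeks of age, and all tissue was taken on pregnancy day 3.5 after mating, so the mice at 3 months were older. The strain background of all groups is labelled mixed C57BL/6 and SV129. Lesions are labelled Pgrcre/+Rosa26mTmG/+, which joins a Cre recombinase expressed from the progesterone receptor gene to a fluorescent Cre reporter. Eutopic and sham uterus are labelled Rosa26mTmG/+, the reporter alone, whereas the series text gives the Cre genotype for the mice with endometriosis. By the labels, genotype and tissue cannot be told apart in any comparison with lesions. All mice at 1 month are labelled fertile. At 3 months the mice with endometriosis are labelled subfertile and the sham mice fertile. Nothing in the labels links a library to an animal, and p-values therefore cover the spread among these samples alone, which may be technical.

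Glycolysis converts glucose to pyruvate in a chain of cytosolic enzymes, and lactate dehydrogenase then turns pyruvate into lactate when oxygen is short or flux is high. Several steps have separate genes for skeletal muscle, brain and most other tissues, so isoform levels also vary with the tissue that a sample holds. When oxygen falls, the HIF alpha proteins escape destruction and switch on many of these enzymes, glucose and lactate carriers, and a set of further targets that act in mitophagy, pH control and feedback. Low oxygen and lactate production are long-standing themes in endometriotic tissue.

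The start regions of 5 members are shown because the results below turn on them. Slc16a3, the lactate exporter, and Pfkfb4, which sets the level of a glycolytic activator, were higher in lesions at both times. Bnip3, a mitophagy receptor, changed between the times. Pgam2 and Eno3 are the muscle forms of phosphoglycerate mutase and enolase. Sequences are from RefSeq on build GRCm38.p6 and run from 250 bases before to 50 bases after the gene start, whereas the counts were made on build mm39. Capitals mark, on either strand, the HIF core letters ACGTG or GCGTG in Slc16a3, Pfkfb4 and Bnip3, and the muscle E-box letters CAGCTG in Pgam2 and Eno3. The Slc16a3 window lies at chr11:120948817-120949116 on the plus strand, the Pfkfb4 window at chr9:108991652-108991951 on the plus strand, the Bnip3 window at chr7:138909457-138909756 on the minus strand, the Pgam2 window at chr11:5803747-5804046 on the minus strand and the Eno3 window at chr11:70656926-70657225 on the plus strand.
Slc16a3: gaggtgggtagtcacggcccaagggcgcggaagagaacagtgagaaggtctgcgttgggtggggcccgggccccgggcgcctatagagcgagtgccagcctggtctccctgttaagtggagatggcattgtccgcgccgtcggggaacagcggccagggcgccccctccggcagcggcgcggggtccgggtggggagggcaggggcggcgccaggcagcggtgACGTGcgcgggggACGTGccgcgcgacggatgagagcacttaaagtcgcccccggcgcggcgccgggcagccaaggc
Pfkfb4: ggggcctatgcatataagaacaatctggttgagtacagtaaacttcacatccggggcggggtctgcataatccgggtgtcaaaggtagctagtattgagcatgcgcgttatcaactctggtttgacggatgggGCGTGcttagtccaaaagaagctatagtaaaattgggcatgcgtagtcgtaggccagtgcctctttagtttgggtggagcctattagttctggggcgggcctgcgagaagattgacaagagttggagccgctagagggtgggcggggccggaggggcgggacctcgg
Bnip3: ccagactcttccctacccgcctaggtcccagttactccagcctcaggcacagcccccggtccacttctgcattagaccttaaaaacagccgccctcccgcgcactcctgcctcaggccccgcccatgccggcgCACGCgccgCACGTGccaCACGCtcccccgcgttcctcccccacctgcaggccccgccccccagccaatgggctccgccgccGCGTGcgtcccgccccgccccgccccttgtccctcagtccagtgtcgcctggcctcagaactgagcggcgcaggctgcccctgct
Pgam2: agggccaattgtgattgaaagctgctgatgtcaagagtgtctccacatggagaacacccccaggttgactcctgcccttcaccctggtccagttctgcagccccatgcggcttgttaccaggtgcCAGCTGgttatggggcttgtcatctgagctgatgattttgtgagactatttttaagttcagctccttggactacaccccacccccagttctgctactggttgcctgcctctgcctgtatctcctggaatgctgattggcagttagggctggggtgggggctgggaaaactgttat
Eno3: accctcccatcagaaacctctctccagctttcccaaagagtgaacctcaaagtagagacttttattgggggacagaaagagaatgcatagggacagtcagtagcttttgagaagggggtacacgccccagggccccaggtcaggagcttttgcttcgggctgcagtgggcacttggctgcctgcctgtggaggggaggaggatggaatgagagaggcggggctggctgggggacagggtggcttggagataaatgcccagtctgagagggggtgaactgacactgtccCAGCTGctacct

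Of the 38 members, 33 had an entry in the RefSeq promoter table. Slc2a3, Bnip3l, Epas1, Ndrg1 and Slc2a4 had none. The HIF core was searched on both strands, where the run CACGTG holds overlapping matches. It was found in 37 of 46 member windows (80.4%), against 43.8% of all 32851 windows in the table, including 6 of 6 windows of hypoxia targets and 16 of 21 windows of widely expressed enzymes. The CAGCTG letters were found in 9 of 46 member windows (19.6%), against 16.3% of all windows. They stood in 2 of 6 windows of muscle isoforms, with no match in Pfkm, and likewise in 2 of 6 windows of hypoxia targets. The HIF core stood in 4 of 6 windows of muscle isoforms, so the letters did not split the members by role. Both motifs stood in the Eno3 window, since 1 HIF core match lay there beside the E-box. A match describes letters in the window and shows no binding.

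Library depth ran from 4.51e+07 to 5.94e+07 total counts. Levels are CPM (read counts scaled to a common library size) after trimmed-mean (TMM) scaling, and libraries of a group are given in the order 1 to 4. Lesion libraries differed widely in marker genes of other tissue. The sum of 20 skeletal muscle genes, none of them a member, was 104, 69432, 22577 and 12114 CPM in lesions at 3 months, against 136 to 191 CPM in eutopic uterus. In the 1-month lesions it was 276, 2010, 252 and 145 CPM, against 154 to 194 CPM in their eutopic uterus. All 20 muscle genes were read in every lesion library at 3 months, whereas Myh1, Myh2, Myh4, Myh7 or Mb stood at 0 counts in some eutopic libraries. A list of 10 ovary genes reached 23315 CPM in 3-month lesion library 1, against 46.7 to 56.9 CPM in eutopic uterus. For 12 genes of liver and pancreas, 1-month lesion library 2 reached 83468 CPM, against 11.9 to 13.9 CPM in eutopic uterus. The sum of 6 uterine tissue genes was 145, 150, 851 and 449 CPM in lesions at 3 months, against 1621 to 1861 CPM in eutopic uterus. Macrophage genes summed to 167, 2409, 1326 and 2511 CPM in those lesions, against 194 to 280 CPM in eutopic uterus. In such bulk samples, fewer cells of a type and less RNA per cell cannot be told apart.

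At 3 months, lesions held more RNA of nearly the whole glycolytic chain than eutopic uterus. Of the 38 members, 30 differed by edgeR's quasi-likelihood test at a Benjamini-Hochberg adjusted p under 0.05 over all 22249 genes tested, where 40.5% of all genes did. There were 28 higher members, beside 23.4% of all genes, and 2 lower members, beside 17.1% of all genes. The median log2 fold change of the members was 1.05, against 0.04 over all genes. All 38 members passed the filter on low counts. The value after ± of a log2 fold change is its standard error. In a fit of the 3-month lesion and eutopic libraries alone, 23 members were called, 21 higher and 2 lower, beside 15.8% of all genes. Gpi1, Pfkl, Ldha, Slc16a1, Bnip3l, P4ha1 and Ankrd37 lost their calls there. The skeletal muscle sum given above was high in lesion libraries 2, 3 and 4, and the ovary sum in library 1.

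**Figure D1:**
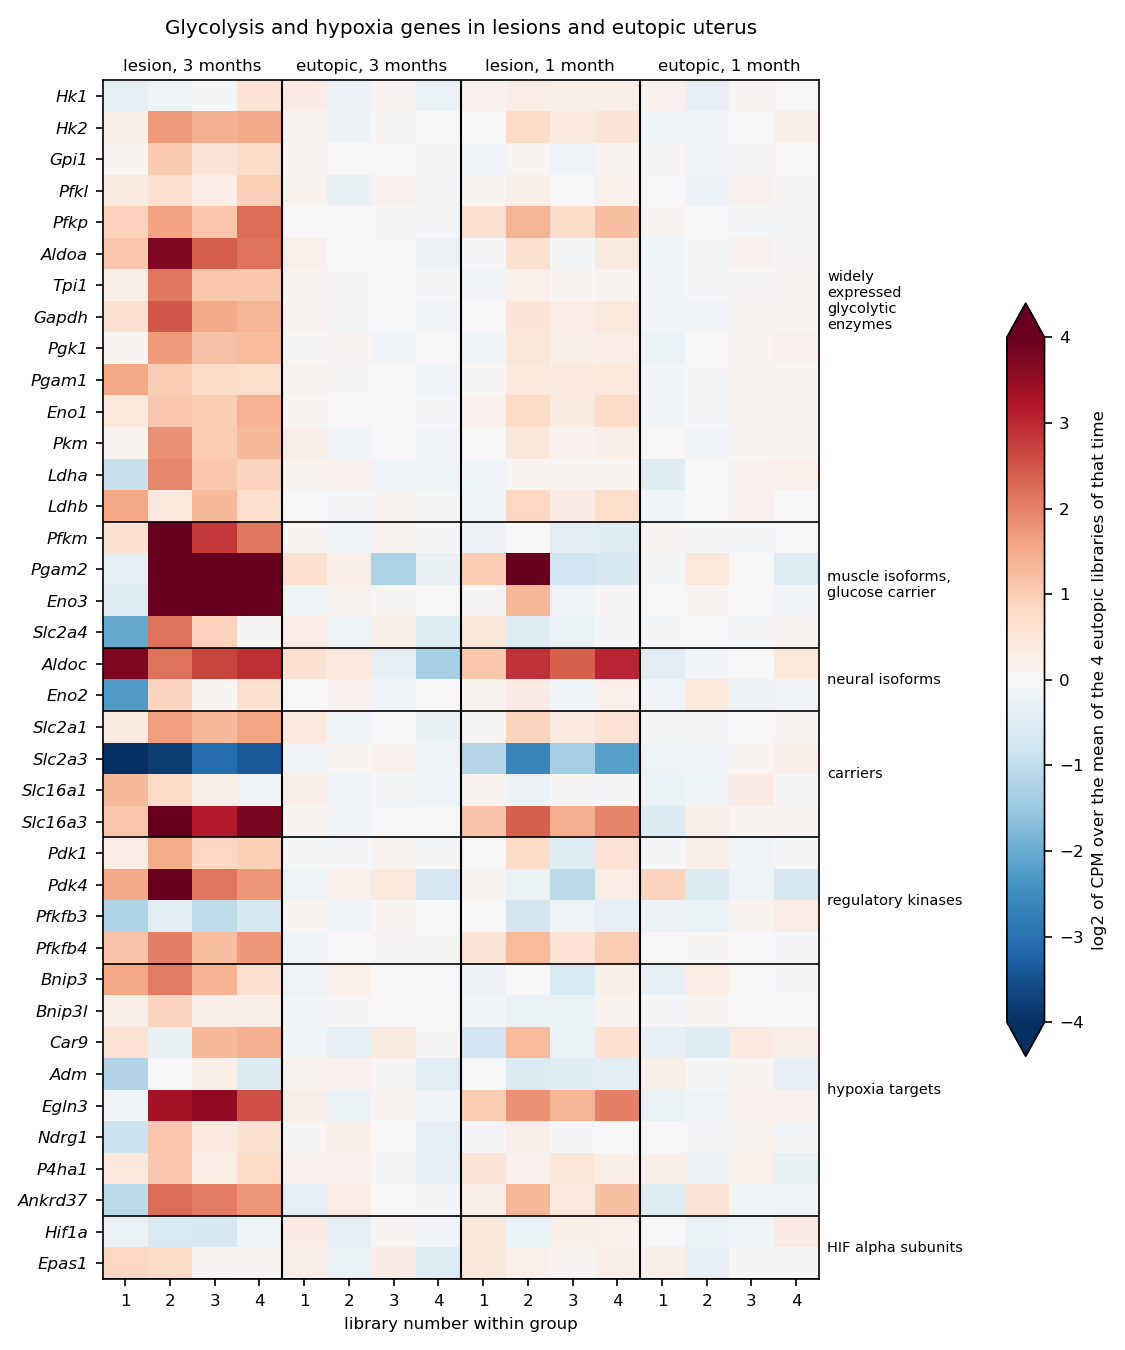
Each cell is log2 of a member's CPM in 1 library over the mean of the 4 eutopic libraries of the same time, with members in rows by role and libraries in columns. Colours end at 4 and -4 on the log2 scale. Most rows of enzymes are red in 3-month lesion libraries 2, 3 and 4 and paler in library 1, while Slc2a3 is blue in all 8 lesion libraries.

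Among the widely expressed enzymes, 13 of 14 were higher in lesions at 3 months, beside 23.4% of all genes. Hk1 was not called (log2 0.02 ± 0.17, edgeR adjusted p = 0.945). Aldoa, which splits fructose bisphosphate and is the aldolase of muscle as well as of most tissues, had 720.4, 4573, 1835 and 1549 CPM in lesions, against 390.2, 339, 344 and 293 CPM in eutopic uterus. All 4 lesion libraries lay above the eutopic range, library 2 far above the rest (log2 2.67 ± 0.34, edgeR adjusted p = 1.49e-05). Gapdh, which makes the first energy-rich phosphate of the lower pathway, had 458, 1680.0, 858 and 775 CPM in lesions, against 334, 289, 298 and 278 CPM in eutopic uterus. The groups did not overlap (log2 1.65 ± 0.24, edgeR adjusted p = 4.40e-05). Pfkp, the platelet-type subunit of phosphofructokinase, the committed step, had 89.8, 146, 102 and 225 CPM in lesions, against 47.7, 47.3, 49.4 and 46.4 CPM in eutopic uterus. Here library 4 was highest (log2 1.56 ± 0.21, edgeR adjusted p = 2.20e-05). Library 1, with a muscle sum below that of uterus and a high ovary sum, was also clear of the eutopic range.

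Pgam1, the widely expressed mutase, had 56.5, 38.6, 32.3 and 31.4 CPM in lesions, against 21.2, 19.9, 19.0 and 17.2 CPM in eutopic uterus. It was highest in library 1, the library with the lowest muscle sum and the highest ovary sum (log2 1.04 ± 0.15, edgeR adjusted p = 3.79e-05). Ldhb, the dehydrogenase subunit of oxidative tissues, had 237, 109, 199.6 and 129.6 CPM in lesions, against 82.2, 76.2, 87.2 and 77.6 CPM in eutopic uterus, again with library 1 highest and no overlap (log2 1.06 ± 0.23, edgeR adjusted p = 0.00114). Ldha, the subunit that favours lactate, had 188, 1302, 731 and 643 CPM in lesions, against 382, 389, 308 and 309 CPM in eutopic uterus. Library 1 lay below every eutopic library and the other lesion libraries above them all, so the groups overlapped although the gene was called (log2 1.05 ± 0.33, edgeR adjusted p = 0.0164). Without lesion library 2 Ldha was not called (log2 0.59, edgeR adjusted p = 0.127). Eno1, the widely expressed enolase, had 126, 196, 187 and 243 CPM in lesions, against 98.2, 92.2, 92.8 and 91.1 CPM in eutopic uterus, with no overlap (log2 1.01 ± 0.16, edgeR adjusted p = 7.71e-05).

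Hk2, the inducible hexokinase that traps glucose in the cell, reached 62.3 to 171 CPM in lesions, against 45.1 to 58.8 CPM in eutopic uterus (log2 1.32 ± 0.22, edgeR adjusted p = 1.33e-04). Tpi1, which interconverts the triose phosphates, stood at 239 to 889 CPM in lesions, against 195 to 224 CPM in eutopic uterus (log2 1.29 ± 0.23, edgeR adjusted p = 2.71e-04). Pgk1, the first ATP-yielding kinase, stood at 30.0 to 93.2 CPM in lesions, against 26.4 to 30.0 CPM in eutopic uterus (log2 1.17 ± 0.22, edgeR adjusted p = 3.46e-04). Each of these enzymes was close to eutopic levels in library 1 and clearly above them elsewhere. Pkm, the last kinase of the chain, gave log2 1.19 ± 0.21, edgeR adjusted p = 2.47e-04. Gpi1, the glucose phosphate isomerase, gave log2 0.64 ± 0.14, edgeR adjusted p = 9.76e-04, and Pfkl, the liver-type phosphofructokinase subunit, gave log2 0.58 ± 0.13, edgeR adjusted p = 0.00157. For Pkm and Gpi1 library 1 fell inside the eutopic range, whereas the groups of Pfkl did not overlap. Reads of Gapdh, Pgk1, Pgam1, Ldha, Eno1 and other enzymes with processed pseudogenes may be split among copies, since the counting mode is not given in the sources used here.

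Pgam2 and Eno3 had the largest fold changes of the 38 members at 3 months. Pfkm, the muscle phosphofructokinase subunit, had 82.2, 1021, 382 and 233 CPM in lesions at 3 months, against 56.9, 47.5, 58.7 and 52.2 CPM in eutopic uterus. All 4 lesion libraries lay above the eutopic range (log2 3.00 ± 0.44, edgeR adjusted p = 4.73e-05). Pgam2, the muscle mutase, had 0.112, 356, 143 and 85.4 CPM in lesions, against 0.288, 0.207, 0.0385 and 0.124 CPM in eutopic uterus. In library 1 Pgam2 lay inside the eutopic range, while libraries 2, 3 and 4 were far above every eutopic library (log2 9.78 ± 1.68, edgeR adjusted p = 1.81e-04). Eno3, the muscle enolase, had 9.17, 1543, 475 and 281 CPM in lesions, against 11.3, 14.6, 13.5 and 13.1 CPM in eutopic uterus (log2 5.46 ± 0.82, edgeR adjusted p = 5.92e-05). Library 1 lay below all eutopic libraries for Eno3, and the other lesion libraries lay far above them. Slc2a4, the insulin-responsive glucose carrier of muscle and fat, had 7.04, 132, 55.5 and 30.5 CPM in lesions, against 36.0, 25.2, 34.8 and 21.0 CPM in eutopic uterus. Its lesion libraries spread on both sides of the eutopic range, and it was not called (log2 0.94 ± 0.48, edgeR adjusted p = 0.121). Without lesion library 1 it was (log2 1.31, edgeR adjusted p = 0.00257), as were Eno2, Ndrg1 (both higher) and Hif1a (lower).

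**Figure D2:**
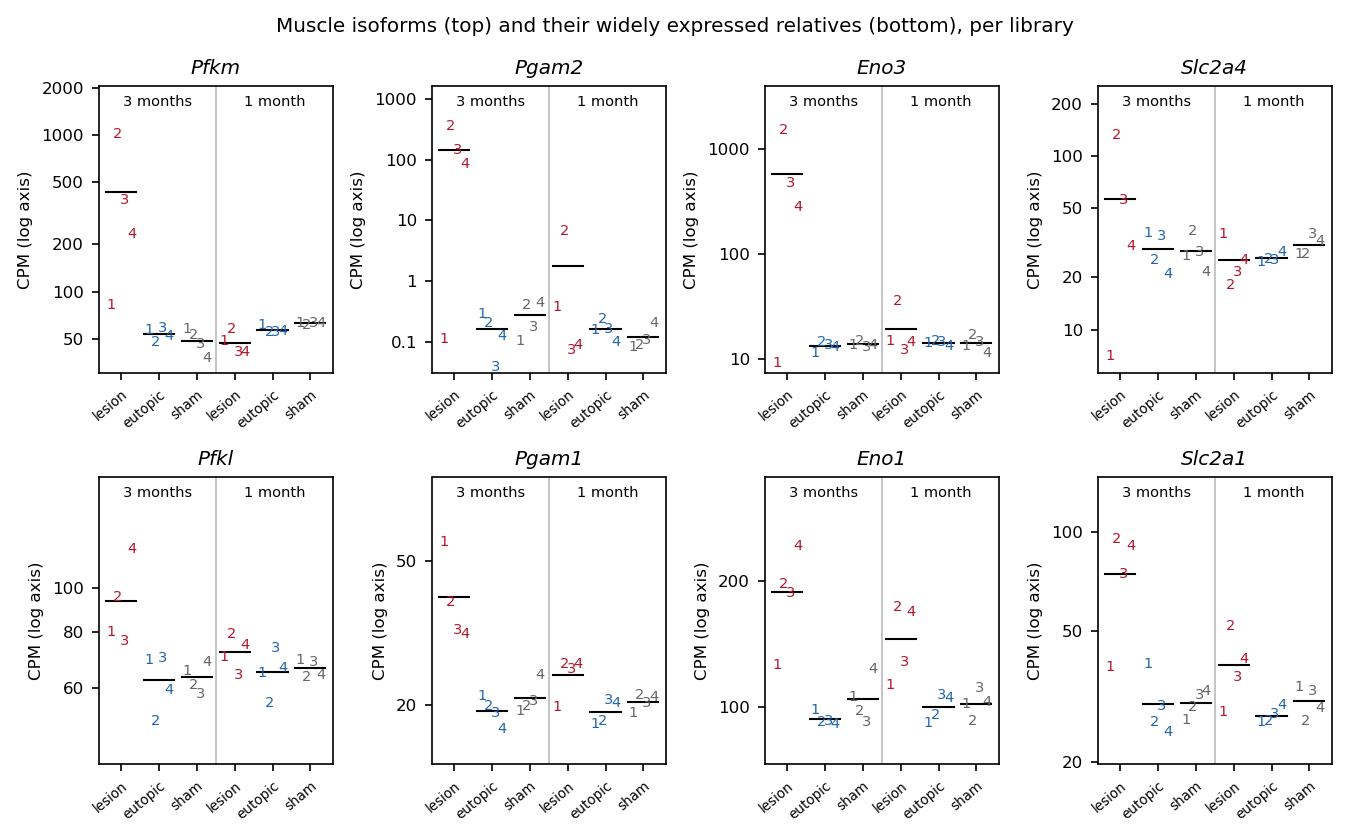
Each digit is the CPM of 1 library on a log axis, drawn as its library number, with lesion, eutopic and sham groups at 3 months on the left and at 1 month on the right. Black lines are group means of 4 libraries. For the muscle genes in the top row, 3-month lesion libraries 2, 3 and 4 stand apart from library 1 (Pgam2 356, 143 and 85.4 CPM against 0.112 CPM), while for Pgam1 in the bottom row library 1 is the highest at 56.5 CPM.

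The skeletal muscle sum ordered the 3-month lesion libraries as 2, 3, 4 and 1, from high to low. The sum of 8 adipocyte genes gave the same order, with 135, 1928, 426 and 168 CPM in lesion libraries 1 to 4, against 23.3 to 107 CPM in eutopic uterus, so muscle and fat cannot be told apart by this order. All 4 muscle isoforms followed that order exactly. Of the 14 widely expressed enzymes, 4 did, and these were Aldoa, Tpi1, Gapdh and Ldha. Of the 8 hypoxia targets, 1 did, Ankrd37, and among the kinases 1 did, Pdk4. In all, 10 of 38 members (26.3%) had this order, as did 5.65% of all genes tested. Library 1 was the lowest of the 4 for 27 members (71.1%), as it was for 34.4% of all genes.

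Library 1 gave a reading of the pathway in a lesion sample whose muscle sum, 104 CPM, was below the eutopic range. In it, 22 of 38 members (57.9%) lay above the range of the eutopic libraries, as did 35.6% of all genes, and 10 members lay below it. The 22 included 10 of the 14 widely expressed enzymes, 4 of the 8 hypoxia targets and 1 of the 4 muscle isoforms, Pfkm. In libraries 2, 3 and 4, with muscle sums of 12114 CPM or more, 32, 31 and 31 members lay above the eutopic range, as did 36.7%, 32.7% and 35.3% of all genes. The median enzyme was 0.30, 1.65, 1.09 and 1.18 above the eutopic mean on the log2 scale in libraries 1 to 4, the median muscle isoform -0.46, 5.56, 4.0 and 3.27, and the median hypoxia target 0.06, 1.09, 0.85 and 0.71. Library 1 also had the high ovary sum, a macrophage sum of 167 CPM, where the other lesion libraries had 1326 to 2511 CPM, and a neutrophil sum of 7.27 CPM, where the others had 99.7 to 233 CPM. The part of these cells in the values was not tested.

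**Figure D3:**
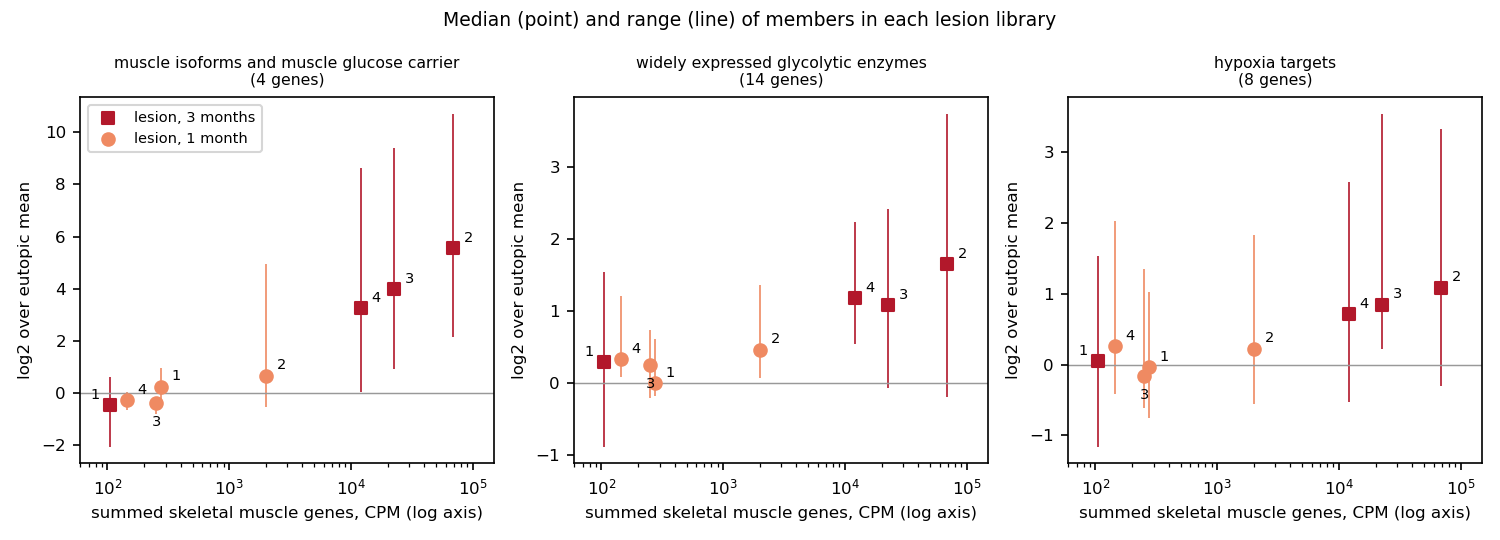
Each panel plots log2 of CPM over the eutopic mean of the same time against the summed CPM of 20 skeletal muscle genes (log axis) for the 8 lesion libraries, numbered within their group. Points are medians over the members of a role and lines run from the lowest to the highest member. The 3-month library 1 lies at the left of each panel, and libraries 4, 3 and 2 lie at the right with medians of 3.27, 4.0 and 5.56 for muscle isoforms and of 1.18, 1.09 and 1.65 for widely expressed enzymes.

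With the log2 muscle sum as a term in the edgeR model, 16 members were called at 3 months, 12 higher and 4 lower, beside 23.8% of all genes. Of the 3-month lesion libraries, only library 1 had a muscle sum as low as uterus, and it also held 23315 CPM of ovary genes. The values at 3 months thus lean on that library, and the term cannot separate muscle from other traits of library 1. Among the enzymes, Pfkp (log2 1.08, adjusted p = 0.00323), Aldoa (1.2, adjusted p = 0.00134), Gapdh (0.71, adjusted p = 0.0151), Pgam1 (1.34, adjusted p = 7.10e-06), Eno1 (0.60, adjusted p = 0.0212) and Ldhb (1.38, adjusted p = 0.00103) were higher in this edgeR fit. Slc16a1, Slc16a3, Aldoc, Pfkfb4 and Bnip3 were also higher, as was Pfkm at a log2 fold change of 0.80 (adjusted p = 0.0311). Slc2a3, Slc2a4, Eno2 and Adm were lower, of which Slc2a3 alone had been called without the term. Hk2, Gpi1, Pfkl, Tpi1, Pgk1, Pkm, Ldha, Pgam2 and Eno3 were no longer called, with log2 values from -0.48 for Ldha to 0.57 for Pgam2. Calls were also lost for Slc2a1 (0.54), Pdk1 (0.30), Pdk4 (1.61), Pfkfb3 (-1.05), Bnip3l (0.33), Egln3 (0.69), P4ha1 (0.41) and Ankrd37 (-0.35), of which Pfkfb3 lay farther from 0 than without the term. Of the hypoxia targets only Bnip3 was called higher in this fit.

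A fit with library 1 as the lone lesion library at 3 months took its spread from the other groups. It holds no spread among 3-month lesions, so only its log2 values are given. That library also held 23315 CPM of ovary genes and 145 CPM of uterine tissue genes. The edgeR log2 value was 1.52 for Pgam1, 1.51 for Bnip3, 1.53 for Ldhb, 1.05 for Aldoa, 1.11 for Pfkfb4 and 1.08 for Slc16a3. Ldha was at -0.91, and Slc2a4, Eno2, Slc2a3, Adm and Ndrg1 were also negative. Egln3 and Ankrd37 were at -0.20 and -1.15. The remaining pair of libraries, 3 and 4, gave 28 called members when libraries 1 and 2 were left out, 27 of them higher, beside 40.6% of all genes.

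The ratio of each muscle form to its widely expressed relative was compared within libraries as a log2 ratio of counts with 1 count added. Pgam2 over Pgam1 was -8.76, 3.21, 2.15 and 1.44 in lesions at 3 months, with a mean of -6.96 ± 0.99 in eutopic uterus (SD, n = 4). Eno3 over Eno1 was -3.78, 2.97, 1.34 and 0.21 in lesions, with a mean of -2.84 ± 0.20 in eutopic uterus. Pfkm over Pfkl was 0.04, 3.42, 2.32 and 0.93 in lesions, with a mean of -0.21 ± 0.08 in eutopic uterus. Libraries 2, 3 and 4 stood above uterus in all these ratios, and library 1 did so for Pfkm over Pfkl alone. Slc2a4 over Slc2a1 was -2.46, 0.47, -0.42 and -1.57 in lesions, with a mean of -0.05 ± 0.20 in eutopic uterus. By a two-sided exact permutation test of 4 libraries against 4, whose smallest possible p is 0.0286, none of the 8 ratios tested over both times passed after adjustment. Pfkm over Pfkl reached an exact permutation p = 0.0286 (adjusted 0.114) at both times, higher by 1.88 in lesions at 3 months with a lesion-eutopic difference of -0.44 at 1 month.

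Levels were also set per kilobase of all annotated exons of a gene. That length can exceed the length of its transcripts, so shares between genes are rough. On this scale the shares of the enolases spread widely. Eno3 took 69.1% ± 35.1 of the summed enolase level in lesions at 3 months, with a range of 17.8% to 95.2%, against 25.8% ± 2.33 in eutopic uterus (SD, n = 4). Eno1 took 28.8% ± 34.3 in those lesions, against 59.5% ± 2.74 in eutopic uterus. Pgam2 held from 0.466% to 95.6% of the mutase level in lesions, against 0.476% to 3.11% in eutopic uterus. For phosphofructokinase, Pfkm held 75.4% ± 16.5 in lesions, against 55.6% ± 0.501 in eutopic uterus. These shares rest on exon lengths of 3340 bases for Pfkm, 6675 for Pfkl and 13401 for Pfkp. By counts alone Pfkl was the higher in eutopic uterus at 3 months, with a mean log2 ratio of Pfkm over Pfkl of -0.21. Which subunit was the most abundant in uterus therefore depends on the scale.

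The neural isoforms did not move together. Aldoc, the aldolase of brain, had 34.1, 11.7, 16.9 and 19.7 CPM in lesions at 3 months, against 3.88, 3.38, 1.91 and 0.993 CPM in eutopic uterus, with library 1 highest and no overlap (log2 3.02 ± 0.67, edgeR adjusted p = 0.00138). Eno2, the neuronal enolase, had 4.20, 37.6, 21.5 and 31.2 CPM in lesions, against 20.02, 23.1, 17.4 and 20.6 CPM in eutopic uterus. Library 1 lay far below and libraries 2 and 4 above the eutopic range, and the gene was not called (log2 0.22 ± 0.38, edgeR adjusted p = 0.669).

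The carriers split by isoform. Slc16a3, which exports lactate, had 10.4, 94.4, 44.3 and 67.8 CPM in lesions at 3 months, against 5.15, 4.45, 4.85 and 4.80 CPM in eutopic uterus. Every lesion library was above the eutopic range, library 1 least so (log2 3.49 ± 0.44, edgeR adjusted p = 1.32e-05). Slc2a1, the general glucose carrier, had 38.8, 95.3, 74.4 and 90.5 CPM in lesions, against 39.6, 26.4, 29.7 and 24.6 CPM in eutopic uterus, and library 1 lay just inside the eutopic range (log2 1.31 ± 0.22, edgeR adjusted p = 1.27e-04). Slc2a3, the high-affinity glucose carrier, had 10.4, 21.0, 34.2 and 28.3 CPM in lesions, against 265, 305, 325 and 269 CPM in eutopic uterus. It was the member with the deepest fall, and its groups were far apart (log2 -3.63 ± 0.57, edgeR adjusted p = 8.33e-05). Slc16a1, the carrier that moves lactate either way, had 118, 82.6, 56.2 and 41.5 CPM in lesions, against 57.1, 43.7, 46.5 and 43.5 CPM in eutopic uterus, with library 4 below the eutopic range and library 1 highest (log2 0.64 ± 0.22, edgeR adjusted p = 0.0237). The log2 value of Slc16a1 was 0.0057 without lesion libraries 1 and 2. Its call was also lost with limma voom, with the compared groups alone, and without lesion library 1 or 2 or eutopic library 2, 3 or 4. On the per-kilobase scale Slc2a3 held 8.90% ± 3.14 of the level of Slc2a1, Slc2a3 and Slc2a4 together in lesions at 3 months, against 70.4% ± 5.26 in eutopic uterus, and Slc2a1 held 58.5% ± 16.2 in lesions, against 15.0% ± 2.94 in eutopic uterus. The fall of Slc2a3 stood beside lower uterine tissue genes in the same lesions, and the part of that in the result was not tested.

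Among the regulatory kinases, Pdk4, which holds back pyruvate entry into mitochondria, had 21.1, 189, 32.2 and 24.9 CPM in lesions at 3 months, against 6.27, 8.45, 9.82 and 4.52 CPM in eutopic uterus. Library 2, with the highest muscle sum, stood far above the others, and all 4 lay above the eutopic range (log2 3.20 ± 0.60, edgeR adjusted p = 3.93e-04). Pfkfb4, which makes or removes the phosphofructokinase activator fructose-2,6-bisphosphate, had 28.7, 52.7, 29.8 and 43.9 CPM in lesions, against 11.9, 13.2, 13.6 and 13.6 CPM in eutopic uterus, with no overlap (log2 1.57 ± 0.17, edgeR adjusted p = 3.26e-06). Pdk1, a relative of Pdk4 and a HIF target, was higher (log2 0.95 ± 0.23, edgeR adjusted p = 0.00323). Pfkfb3, the more kinase-biased relative of Pfkfb4, had 132, 222, 150 and 184 CPM in lesions, against 317, 268, 322 and 304 CPM in eutopic uterus, and every lesion library lay below every eutopic one (log2 -0.81 ± 0.30, edgeR adjusted p = 0.0343). The Pfkfb3 call was lost with the replicate block (edgeR adjusted p = 0.0522), with the muscle term and without lesion libraries 1 and 2 together. It was also lost without lesion library 1, 3 or 4 or eutopic library 1, 3 or 4. Its adjusted p in these edgeR fits was 0.0516 to 0.0997.

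Hypoxia targets outside glycolysis rose in part, 5 of 8 at 3 months, beside 23.4% of all genes. Of these 5, Bnip3l, P4ha1 and Ankrd37 were not called in the fit of the compared groups alone. Bnip3 had 79.0, 112, 71.9 and 42.4 CPM in lesions, against 23.6, 31.2, 26.8 and 27.2 CPM in eutopic uterus. All 4 lesion libraries were above the eutopic range, library 1 included (log2 1.49 ± 0.23, edgeR adjusted p = 6.97e-05). Egln3, the oxygen-dependent hydroxylase that feeds back on HIF, had 4.73, 53.8, 62.4 and 32.2 CPM in lesions, against 6.29, 4.39, 5.74 and 4.82 CPM in eutopic uterus, where library 1 lay inside the eutopic range and the others far above it (log2 2.85 ± 0.52, edgeR adjusted p = 3.17e-04). Ankrd37, an ankyrin repeat gene known as a HIF target, had 0.691, 7.34, 6.56 and 5.25 CPM in lesions, against 1.17, 1.89, 1.52 and 1.45 CPM in eutopic uterus, with library 1 the lowest of all (log2 1.72 ± 0.45, edgeR adjusted p = 0.00528). Bnip3l, the relative of Bnip3, rose slightly (log2 0.46 ± 0.13, edgeR adjusted p = 0.00807), and P4ha1, a collagen prolyl hydroxylase subunit, did too (log2 0.68 ± 0.19, edgeR adjusted p = 0.00755).

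Car9, the cell-surface carbonic anhydrase used as a hypoxia marker, had 2.04, 1.07, 3.39 and 3.65 CPM in lesions at 3 months, against 1.23, 1.02, 1.71 and 1.38 CPM in eutopic uterus, and was not called (log2 0.92 ± 0.41, edgeR adjusted p = 0.0764), although it was higher with limma voom (adjusted p = 0.0487) and without lesion library 2 (edgeR adjusted p = 0.0258). Adm, a vasodilator peptide, had 6.14, 13.6, 16.1 and 9.51 CPM in lesions, against 15.1, 15.5, 14.2 and 10.3 CPM in eutopic uterus, with overlap (log2 -0.28 ± 0.23, edgeR adjusted p = 0.334). Ndrg1, a stress-responsive gene, ranged over 41.6 to 162 CPM in lesions, against 58.2 to 89.6 CPM in eutopic uterus (log2 0.46 ± 0.26, edgeR adjusted p = 0.165). Hif1a, the ubiquitous oxygen-labile alpha subunit, had 267, 212, 204 and 285 CPM in lesions, against 404, 246, 349 and 299 CPM in eutopic uterus, with overlap (log2 -0.42 ± 0.18, edgeR adjusted p = 0.0621). Epas1, the alpha subunit prominent in endothelium, gave log2 0.50 ± 0.20, edgeR adjusted p = 0.0524. With the replicate block Hif1a was called lower (edgeR adjusted p = 0.0332) and Epas1 higher (edgeR adjusted p = 0.0299), and Epas1 was also called higher by DESeq2 and with its size factors. Leaving out 1 library called Hif1a lower in 3 cases (eutopic library 2, lesion library 1 or 4) and Epas1 higher in 4 (eutopic library 1 or 3, lesion library 3 or 4). Transcript levels of the alpha subunits say little of their protein, which oxygen controls by degradation.

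**Figure D4:**
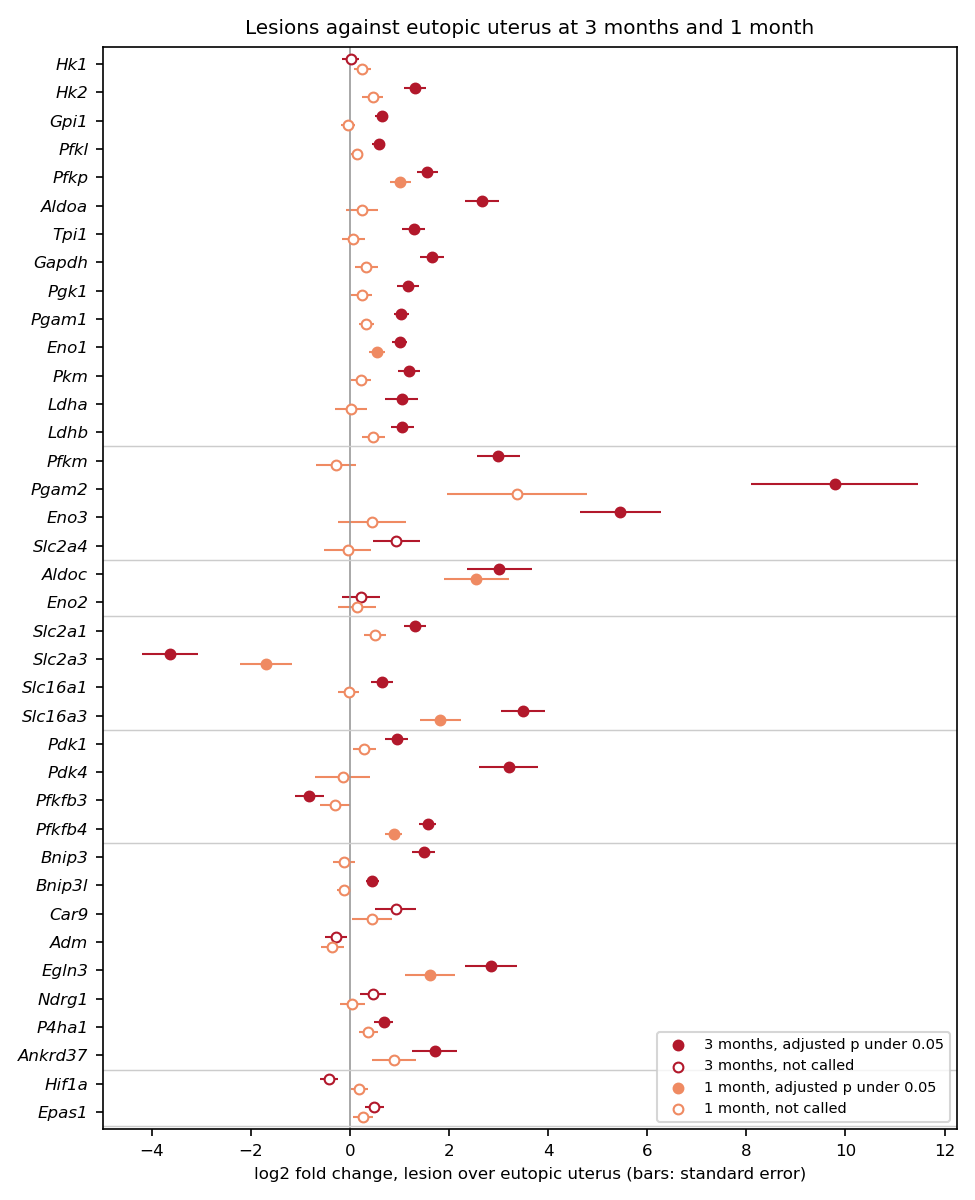
Points are log2 fold changes of lesions over eutopic uterus for the 38 members, in the order of their roles, with bars of 1 standard error, for 3 months (dark) and 1 month (light). Filled points passed an edgeR adjusted p of 0.05. At 3 months the filled points run from -3.63 for Slc2a3 to 9.78 for Pgam2, and at 1 month 7 points are filled.

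At 1 month the share of members called in lesions, with higher and lower calls pooled, was below that of all genes. The share of members called higher was above that of all genes, and the share called lower was below it. The members called included the lactate exporter, the brain aldolase, Pfkfb4 and Pfkp. Of the 38 members, 7 differed from eutopic uterus, beside 20.6% of all genes tested, with 6 higher (11.9% of all genes) and 1 lower (8.71% of all genes). The median log2 fold change was 0.25, against -0.01 over all genes. Pfkfb4 had 19.2, 31.3, 19.3 and 26.6 CPM in lesions at 1 month, against 13.1, 13.5, 13.1 and 12.4 CPM in eutopic uterus, with every lesion library higher (log2 0.89 ± 0.17, edgeR adjusted p = 0.00220). Pfkp had 73.4, 122, 79.9 and 111 CPM in lesions, against 51.6, 46.7, 46.6 and 45.8 CPM in eutopic uterus, again without overlap (log2 1.02 ± 0.21, edgeR adjusted p = 0.00309). Slc16a3 had 10.9, 26.0, 13.5 and 19.0 CPM in lesions, against 3.31, 5.82, 5.20 and 5.29 CPM in eutopic uterus, with lesions above uterus in each library (log2 1.82 ± 0.42, edgeR adjusted p = 0.00580). Aldoc had 4.38, 15.7, 10.99 and 17.5 CPM in lesions, against 1.504, 1.93, 2.08 and 2.76 CPM in eutopic uterus, lesion library 1 being the nearest to uterus (log2 2.55 ± 0.65, edgeR adjusted p = 0.0109).

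Egln3 had 11.6, 20.3, 14.6 and 23.3 CPM in lesions at 1 month, against 4.72, 5.14, 6.34 and 6.46 CPM in eutopic uterus (log2 1.62 ± 0.50, edgeR adjusted p = 0.0278). Eno1 had 113, 173, 128 and 169 CPM in lesions, against 91.5, 95.8, 107 and 105 CPM in eutopic uterus (log2 0.55 ± 0.16, edgeR adjusted p = 0.0183). Slc2a3 had 159, 56.2, 141 and 77.4 CPM in lesions, against 306, 316, 372 and 409.7 CPM in eutopic uterus, with all lesion libraries below all eutopic ones (log2 -1.69 ± 0.53, edgeR adjusted p = 0.0284). Groups of these 3 genes did not overlap. Without lesion library 2, which held the liver and pancreas RNA, only Pfkp, Aldoc, Slc16a3 and Pfkfb4 were called, and the same 4 were called without lesion library 4 or without eutopic library 2. Slc2a3 was not called when either eutopic library 3 or 4 was left out, and Egln3 was not called without any 1 of the 4 eutopic libraries.

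**Figure D5:**
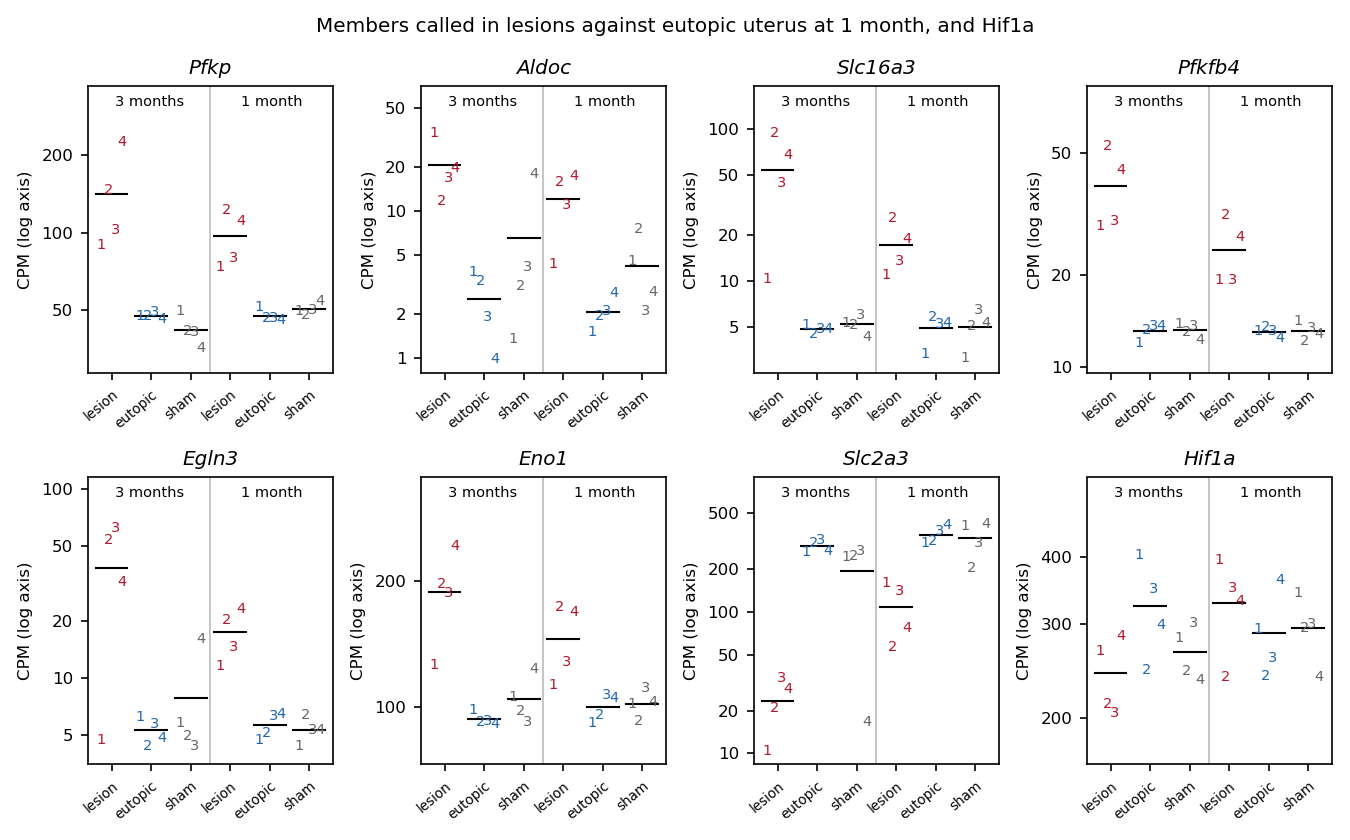
Each digit is the CPM of 1 library on a log axis, drawn as its library number, for the 7 members called at 1 month and for Hif1a, with 3 months on the left and 1 month on the right. Black lines are means of 4 libraries. Lesion values exceed eutopic values in all 4 libraries at 1 month for 6 members (Pfkfb4 19.2 to 31.3 CPM against 12.4 to 13.5 CPM), Slc2a3 is below them, and Hif1a overlaps.

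None of the muscle isoforms was called at 1 month, nor were Aldoa and Gapdh, but with the muscle term Pfkm was lower (log2 -0.64, edgeR adjusted p = 0.0248). Pgam2 had 0.375, 6.65, 0.0734 and 0.0873 CPM in lesions, against 0.157, 0.237, 0.165 and 0.100 CPM in eutopic uterus, and only library 2, with a muscle sum of 2010 CPM, stood apart (log2 3.38 ± 1.41, edgeR adjusted p = 0.0922). Eno3 had 14.7, 35.9, 12.1 and 14.5 CPM in lesions, against 14.1, 14.8, 14.4 and 13.2 CPM in eutopic uterus, with the same library highest (log2 0.45 ± 0.69, edgeR adjusted p = 0.674). Pfkm had 48.2, 57.3, 41.3 and 40.9 CPM in lesions, against 61.3, 55.5, 55.5 and 56.0 CPM in eutopic uterus, with 3 of 4 lesion libraries below the eutopic range (log2 -0.28 ± 0.41, edgeR adjusted p = 0.656). Aldoa had 359, 582, 365 and 489 CPM in lesions, against 336, 361, 426 and 393 CPM in eutopic uterus, with overlap (log2 0.24 ± 0.32, edgeR adjusted p = 0.623). Bnip3 had 22.9, 27.0, 17.5 and 31.7 CPM in lesions, against 21.2, 33.2, 27.0 and 25.7 CPM in eutopic uterus, with overlap (log2 -0.11 ± 0.22, edgeR adjusted p = 0.756). Above the eutopic range lay 12, 24, 15 and 24 of the 38 members in lesion libraries 1 to 4, whereas 30.3%, 33.9%, 30.3% and 33.3% of all genes did. For the 14 widely expressed enzymes the counts were 3, 13, 9 and 13.

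The difference between lesions and eutopic uterus changed from 1 to 3 months for 4 members, beside 0.746% of all genes, each of them upward (0.440% of all genes, with 0.306% downward). These were Pfkm (log2 3.28 ± 0.59, edgeR adjusted p = 0.0226), Aldoa (log2 2.42 ± 0.46, edgeR adjusted p = 0.0302), Bnip3 (log2 1.60 ± 0.32, edgeR adjusted p = 0.0329) and Eno3 (log2 5.01 ± 1.02, edgeR adjusted p = 0.0342). The median over the members was 0.68, against 0.06 over all genes. The set depended on the fit and on single libraries. A model of the 4 compared groups alone called 0 members, beside 0.0462% of all genes. DESeq2 called 12 (2.05% of all genes) and limma voom 14 (2.10%). With the muscle term 6 were called, beside 7.18% of all genes, with Aldoa, Pgam1, Pfkm, Slc16a1 and Bnip3 upward and Eno2 downward, and Eno3 was not called (log2 0.69). Without 3-month lesion library 1, the one low in muscle genes and high in ovary genes, 16 members were called, all upward, beside 3.96% of all genes. Without eutopic library 3 or 4 at 3 months, or lesion library 1 or 3 at 1 month, 0 were called. These fits called 0.0483% to 0.0746% of all genes. Pfkm alone was called without eutopic library 2 at 3 months or eutopic library 2, 3 or 4 at 1 month. There 0.0835% to 0.149% of all genes were called. Counts also moved with 3-month lesion libraries 2, 3 and 4, with 2, 9 and 7 members without each (0.234%, 4.37% and 1.99% of all genes). Without eutopic library 1 at 3 months 2 members were called (0.145%), and without 1-month lesion library 2 the count was 6 (1.68%). With library 1 as the lone lesion library, log2 values were upward for Aldoa, Pfkm, Bnip3, Pgam1, Ldhb and Slc16a1. Eno3 was at -0.98, and other members were also downward.

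Lesions at 3 months were also set against lesions at 1 month directly. Of the members, 18 differed, beside 10.8% of all genes, with 17 higher (6.48% of all genes) and 1 lower (4.37% of all genes). Pfkm differed by 3.19 ± 0.44 (adjusted p = 5.27e-04), Bnip3 by 1.62 ± 0.23 (adjusted p = 5.27e-04) and Aldoa by 2.27 ± 0.34 (adjusted p = 8.58e-04) in the edgeR fit, and all 3 were without overlap between the times. Gapdh (log2 1.27 ± 0.24, edgeR adjusted p = 0.00284), Tpi1 (log2 1.21 ± 0.23, edgeR adjusted p = 0.00313) and Pgam1 (log2 0.71 ± 0.15, edgeR adjusted p = 0.00508) were likewise higher at 3 months in every library. Slc2a3 was lower (log2 -2.21 ± 0.54, edgeR adjusted p = 0.0120). Without 3-month lesion library 1, 27 members were called, beside 16.9% of all genes. In a fit of the lesion libraries alone 0 members were called, as were 0 of all 19979 genes tested there. The main fit took its spread from all 24 libraries, uterus included. With the muscle term 9 members were called, beside 17.2% of all genes, the higher ones being Aldoa, Pgam1, Ldhb, Pfkm, Slc16a1, Bnip3 and Bnip3l. This comparison shares its lesion libraries with the preceding ones.

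Between eutopic and sham uterus no member passed the test. By edgeR 0 of the 38 members were called at 3 months and 0 at 1 month, and DESeq2 and limma voom also called 0 at either time. Over all genes edgeR called 0 of 21208 genes (0%) at 3 months and 2 genes (0.00943%) at 1 month. An unadjusted p under 0.05 was reached by 2 members at 3 months and by 0 at 1 month. Aldoa averaged 341 ± 39.6 CPM in eutopic uterus at 3 months and 358 ± 21.7 CPM in sham uterus (SD, n = 4 each), and Pfkfb4 13.1 ± 0.767 and 13.2 ± 0.702 CPM in these groups. Sham library 4 at 3 months stood apart in several members. Slc2a3 had 265, 305, 325 and 269 CPM in eutopic uterus, against 244, 249, 268 and 16.6 CPM in sham uterus, the value of library 4 being in the range of lesions (log2 0.58 ± 0.51, edgeR adjusted p = 0.997).

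The wider pathway was followed in 56 further genes. Of 30 other genes of glucose handling, 27 were tested, and at 3 months 9 were higher and 6 lower in lesions than in eutopic uterus, beside 23.4% and 17.1% of all genes. Hk3, the hexokinase of myeloid cells, gave log2 4.89 ± 0.76, edgeR adjusted p = 7.60e-05, beside macrophage genes that were all higher in lesions (8 of 8). Pygm, the muscle glycogen phosphorylase, gave log2 4.07 ± 0.72, edgeR adjusted p = 2.42e-04, but -0.72 with the muscle term. With library 1 as the lone lesion library Hk3 was -0.17 and Pygm -1.44. Gys1, the muscle glycogen synthase, gave log2 1.43 ± 0.22, edgeR adjusted p = 8.00e-05, and Bpgm, which makes 2,3-bisphosphoglycerate, gave log2 1.48 ± 0.15, edgeR adjusted p = 2.08e-06. Slc2a12, a further glucose carrier, was lower (log2 -2.55 ± 0.44, edgeR adjusted p = 2.02e-04). The median was 0.32, against 0.04 over all genes.

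Of 26 other genes of the HIF pathway or its targets, all tested, 10 were higher and 5 lower at 3 months, beside the same 23.4% and 17.1% of all genes, with a median of 0.19. Hmox1, which degrades heme, gave log2 3.17 ± 0.29, edgeR adjusted p = 6.65e-07, and Bhlhe40, a transcriptional repressor, gave log2 2.43 ± 0.37, edgeR adjusted p = 7.35e-05. Ero1a, an oxidase of protein folding, gave log2 1.12 ± 0.17, edgeR adjusted p = 5.00e-05. Hif3a, an alpha subunit that can oppose HIF activity, was lower (log2 -2.88 ± 0.52, edgeR adjusted p = 2.54e-04), as was Car12, a relative of Car9 (log2 -2.74 ± 0.56, edgeR adjusted p = 8.04e-04). At 1 month, 2 genes of glucose handling were higher, Hk3 (log2 3.52 ± 0.71, edgeR adjusted p = 0.00306) and Bpgm (log2 0.53 ± 0.15, edgeR adjusted p = 0.0186), and 1 was lower, Ldhd, beside 11.9% and 8.71% of all genes. In the HIF list 3 were higher at 1 month, among them Hmox1 (log2 1.86 ± 0.28, edgeR adjusted p = 5.06e-04), and 4 were lower, beside the same shares. The macrophage sum was 776, 1478, 614 and 1463 CPM in 1-month lesions, against 225 to 299.5 CPM in eutopic uterus, and their part in the Hk3 and Hmox1 values was not tested.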

How the data were processed

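Total RNA libraries of mouse uterus and endometriotic lesions were analysed from the gene-level counts deposited by the authors, whole numbers with no normalization. Per the submitters' processing notes, bcl2fastq 1.9.0, STAR 2.7.9a and edgeR were used on build mm39. The sources used here name no annotation, counting mode or strand setting. All 24 libraries had a column and were grouped by their labels, 4 in each of 6 groups.

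The counts were fitted with edgeR 4.0.16 (R 4.3.3), using TMM scaling, filterByExpr by group, robust quasi-likelihood dispersions and 1 mean per group. The fit held 22249 genes in 24 libraries, or 21208 genes in the 16 uterine libraries for eutopic against sham uterus. Lesions vary more than uterus and were left out of that uterine fit. In lesion comparisons, lesions and uterus share 1 estimate of the spread. Calls were made below 0.05 after Benjamini-Hochberg adjustment over all genes tested. DESeq2 1.42.0 and limma 3.58.1 (voom with quality weights), other scaling, no filter, a replicate block, a muscle term and omitted libraries were alternatives. Isoform ratios were tested with exact permutation (scipy 1.17.1). Levels per kilobase used the joined length of all annotated exons of a gene on GRCm38, not on the build of the counts. A second Aldoa line of 940 counts in all was left out. Members, gene lists and comparisons were chosen with earlier results of these data known, and every member is named. In simulated counts with known changes, the fit called 76 of 100 genes changed 4-fold and 47 of 100 changed 2-fold for lesions against eutopic uterus at 3 months, among 22249 genes.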

Additional observations from a re-analysis of the deposited data

Results flagged for a closer look

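In groups of 4 libraries, the highest or lowest value was compared with the nearest of the others over the whole range of the group. Of 228 sets, 38 members in 6 groups, 15 (6.58%) had a library apart, where chance gives about 1 in 20. In lesions at 3 months, library 2 held 189 CPM of Pdk4, against 21.1 to 32.2 CPM in the other lesion libraries, and 191 CPM of Bnip3l, against 122 to 124 CPM. In lesions at 1 month, library 2 held 6.65 CPM of Pgam2, against 0.0734 to 0.375 CPM, and 35.9 CPM of Eno3, against 12.1 to 14.7 CPM. In the same group library 1 was low, with 19.8 CPM of Pgam1, against 25.1 to 26.1 CPM, and 323 CPM of Ldha, against 386 to 396 CPM. Pdk1 reached 40.9 CPM in eutopic library 3 at 3 months, and the others 35.3 to 35.9 CPM. Eutopic library 1 at 1 month held 51.6 CPM of Pfkp, against 45.8 to 46.7 CPM, and 61.3 CPM of Pfkm, against 55.5 to 56.0 CPM, and library 2 held 21.5 CPM of Eno2, against 13.6 to 14.7 CPM.

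In sham uterus at 3 months, library 4 stood apart in 3 members. It held 16.6 CPM of Slc2a3, against 244 to 268 CPM in the other sham libraries, 58.8 CPM of Slc16a1, against 44.4 to 46.7 CPM, and 16.2 CPM of Egln3, against 4.40 to 5.83 CPM. P4ha1 was high in sham library 1 at 3 months, at 108 CPM against 66.7 to 73.0 CPM, and in sham library 2 at 1 month, at 118 CPM against 77.0 to 83.4 CPM.

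The lesion-eutopic difference was larger at 3 months than at 1 month by an edgeR interaction test for 4 members, beside 0.440% of all genes. The log2 change was 2.42 for Aldoa (adjusted p = 0.0302), 3.28 for Pfkm (adjusted p = 0.0226), 5.01 for Eno3 (adjusted p = 0.0342) and 1.60 for Bnip3 (adjusted p = 0.0329). A fit of the compared groups alone called 0 members, and leaving out 1 library gave 0 to 16, so the set depended on the fit. Over the 3-month lesion libraries Pfkm, Aldoa and Eno3 followed the order of the skeletal muscle sum, and Bnip3 did not.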

How the results depend on the processing

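Members called in lesions against eutopic uterus at 3 months numbered 23 with the compared groups alone, 16 with the muscle term and 19 with library 1 as the lone lesion library, and 28 to 32 when 1 library was left out. At 3 months 15.8% of all genes were called with the compared groups alone and 23.8% with the muscle term. With 1 library left out the share at 3 months was 33.5% to 47.8%. At 1 month limma voom called 14, where it called 10013 genes in all, and 4 to 7 were called when 1 library was left out. Those 1-month fits without 1 library called 11.3% to 20.6% of all genes. For the change between times the count was 12 with DESeq2, 14 with limma voom, 6 with the muscle term, 0 with the compared groups alone, 10 without 3-month lesion libraries 1 and 2, 13 with library 1 alone, 16 without those and 1-month library 2 (an alternative chosen after seeing the data), and 0 to 16 when 1 library was left out. The change fits called 2.05% of all genes with DESeq2, 2.10% with limma voom and 7.18% with the muscle term. With the compared groups alone the share was 0.0462%, and with 1 library left out it was 0.0483% to 4.37%. It was 1.18% without 3-month lesion libraries 1 and 2, and 3.33% without those and 1-month library 2. Fits with library 1 as the lone lesion library hold no spread among 3-month lesions, so no conclusion is drawn from their counts. For lesions at 3 months against 1 month the compared groups alone gave 0 (0% of all genes). The muscle term gave 9 (17.2%), and leaving out 1 library gave 15 to 27 (5.06% to 16.9%). The cause was not tested. Eutopic and sham uterus gave 0 throughout. With a replicate block the counts were 31 at 3 months, 7 at 1 month, 4 for the change, 18 for lesions between times and 0 for each uterine comparison. The lesion comparisons called 41.1%, 22.3%, 0.719% and 10.5% of all genes in that order. At 3 months the block lost Pfkfb3 and added Hif1a and Epas1. For each library the log2 CPM of every gene was taken as a deviation from the mean of its group. Correlations of these deviations between lesion and eutopic libraries of the same number were 0.00343 to 0.337 at 3 months and 0.0735 to 0.191 at 1 month. Libraries of unlike number were not compared, so whether the numbers pair samples was not tested. DESeq2 size factors within edgeR gave 31, 7, 4 and 18 in the same order, beside 40.7%, 20.6%, 0.773% and 11.3% of all genes. Without the filter the counts were 30, 6, 3 and 18, beside 21.9%, 8.31%, 0.0722% and 4.87%.

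Some single values turned sign. With the muscle term at 3 months, Ldha was -0.48, Slc2a4 -1.59, Ankrd37 -0.35 and Pygm -0.72 on the log2 scale. With library 1 as the lone 3-month lesion library, lesions against eutopic uterus gave Ldha -0.91, Pgam2 -0.57, Eno3 -0.54, Slc2a4 -2.08, Egln3 -0.20, Ankrd37 -1.15, Hk3 -0.17 and Pygm -1.44, the change with time gave Eno3 -0.98, and lesions between times gave Hk2 -0.18, Pgk1 -0.31, Pkm -0.15, Pgam2 -3.98, Eno3 -1.10, Slc2a1 -0.0458 and Slc16a3 -0.77. At 1 month Slc2a4 ranged over -0.27 to 0.0745 when 1 library was left out, being positive without lesion library 2 (0.0745) or 3 (0.0151), and the Pgam2 over Pgam1 difference ranged over -0.46 to 1.58, being negative without lesion library 2. Pgam2 failed the filter at 1 month with the compared groups alone and has no value there. Pgam2 was near the limit of depth in eutopic uterus, at 0.0385 to 0.288 CPM at 3 months.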
